A study of Homo sapiens with 16 samples.

Results

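The genes of the proteasome were followed in 8 lung cancer cell lines grown in 2 ways. The set holds the subunits of the core particle, of the regulatory particle, of the interferon-inducible core and of the activators, 41 genes in all, and its members on the array are the probe sets annotated to one of these genes and to no other. A probe set is a group of short oligonucleotides that reads one transcript. Of the 41 genes, 36 had 68 such probe sets, of 54675 on the array. The probe sets of PSMA6 and PSME2 name several genes, and PSMC5, PSMD7 and PSMD13 were not analysed here. A probe set was treated as dim when its median lay under its reference. By that rule 3 of the 68 were dim and 65 were tested, so each of the 36 genes kept at least 1.

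The established human lung cancer lines H1437, H1703, H661, H460, H358, H23, A549 and A427 were used. In 2D, untreated cells grew on tissue culture plastic. In 3D, untreated cells grew over a thin Matrigel layer, a basement membrane extract, in medium with 2% Matrigel dissolved in it. Each line gave 1 array per culture, 16 in all. The deposited values are log2 ratios to a reference of each probe set's own, so a value compares arrays for 1 gene and says nothing about whether one gene is expressed more than another. Below, a level is such a log2 ratio averaged over the gene's tested probe sets, and a difference is the level in 3D minus the level in 2D of the same line. Nothing in the labels says that the arrays of a line came from repeated cultures, so p-values measure the spread of the difference over the 8 lines.

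The proteasome degrades proteins tagged with ubiquitin. Its core is a stack of rings in which alpha subunits form the gate and beta subunits hold the active sites. A regulatory particle caps the core, with a base of ATPases that unfolds substrates and a lid that removes ubiquitin chains. Interferon induces the beta subunits PSMB8, PSMB9 and PSMB10, which take the places of PSMB5, PSMB6 and PSMB7 in newly built cores and favour peptides that bind HLA class I. Transcription of the standard subunits is known to rise together through NFE2L1 when proteasome activity is short, by way of antioxidant response elements.

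Promoter letters are shown for 4 genes that carry the contrasts below. PSMB3 was lower in 3D in every line and is the 1 gene, of the 6 that fell and had a window, with an antioxidant response element core in its window. PSME1 and PSMB8 had their highest differences in A549, and PSMB10 is an inducible subunit with an interferon response match. The windows are the bases just before the start of the gene, from RefSeq, 5′ to 3′ on the gene's strand. Capitals mark TGACNNNGC and CCAAT in PSMB3, TGACNNNGC in PSME1, TTCNNNGAA (the GAS motif bound by STAT factors) in PSMB8 and the interferon response motif (GAAA, any pair of bases, GAAA) in PSMB10. PSMB8 has 2 windows in RefSeq. The window shown was chosen by its number of matches to the marked motif, so the other holds no more matches and may hold none.
PSMB3 (GRCh38.p14, chr17:38752491-38752740, plus strand): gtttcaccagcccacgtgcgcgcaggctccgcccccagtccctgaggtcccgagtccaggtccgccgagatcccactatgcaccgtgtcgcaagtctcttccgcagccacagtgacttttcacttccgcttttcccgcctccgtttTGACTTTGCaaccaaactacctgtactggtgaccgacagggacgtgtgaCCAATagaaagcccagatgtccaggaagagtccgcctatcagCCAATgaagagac
PSME1 (GRCh38.p14, chr14:24135944-24136193, plus strand): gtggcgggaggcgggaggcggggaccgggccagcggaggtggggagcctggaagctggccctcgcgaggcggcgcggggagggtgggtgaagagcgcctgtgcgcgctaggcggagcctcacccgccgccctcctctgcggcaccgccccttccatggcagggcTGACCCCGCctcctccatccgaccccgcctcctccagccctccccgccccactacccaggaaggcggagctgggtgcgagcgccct
PSMB8 (GRCh38.p14, chr6:32844048-32844297, minus strand): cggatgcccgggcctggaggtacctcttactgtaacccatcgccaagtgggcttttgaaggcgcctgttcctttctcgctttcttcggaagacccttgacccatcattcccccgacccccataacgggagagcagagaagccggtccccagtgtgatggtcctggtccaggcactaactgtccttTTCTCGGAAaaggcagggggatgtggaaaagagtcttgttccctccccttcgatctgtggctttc
PSMB10 (GRCh38.p14, chr16:67936851-67937100, minus strand): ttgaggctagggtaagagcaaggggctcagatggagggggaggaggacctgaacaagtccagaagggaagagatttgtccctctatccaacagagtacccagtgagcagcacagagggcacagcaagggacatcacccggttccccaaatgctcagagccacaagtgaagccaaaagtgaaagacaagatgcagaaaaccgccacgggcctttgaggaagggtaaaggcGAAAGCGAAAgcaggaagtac
All 4 motifs were searched on both strands of such windows, which RefSeq gave for 36 of the 41 members and for 27305 genes in all. TGACNNNGC was present in 11 of the 36 members (30.6%) against 13.2% of all genes, and CCAAT in 17 (47.2%) against 37%. TTCNNNGAA was present in 6 members (16.7%) against 8.09%, and the interferon response motif in 4 (11.1%) against 3.71%. Of the 6 genes that fell and had a window, 1 held TGACNNNGC, 3 held CCAAT and 0 held either interferon motif. The matches overlap no other capital in the windows shown, and a match describes letters only.

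Most proteasome genes had lower levels in 3D than in 2D. Of the 36 genes 9 fell and 0 rose (limma, Benjamini-Hochberg over the 14113 genes tested), which is 25% lower against a background of 6.09% of all genes called, 4.12% lower and 1.97% higher. The 9 were PSMA7, PSMB2, PSMB3, PSMB6, PSMB7, PSMC3, PSMD1, PSMD2 and PSMD14. The median difference of the 36 genes was -0.23 (log2), against -0.01 over all genes, and 29 had values below 0. In 8 of 8 lines 11 genes were lower and 2 were higher. Of all genes, 4.42% were lower in 8 of 8 lines, against 30.6% of the members. Before adjustment 21 of the 36 had a p under 0.05, 20 of them below 0, against 3524 of the 14113 genes. The 2D and 3D values overlapped for all 36 genes, and the share over all genes was not counted. Each call rests on the pairing of cultures within a line. With that pairing ignored, limma called 0 members, and 1 gene lower and 0 higher of the 14113. Each array reads bulk RNA of 1 cell line, so a change in part of its cells and a change in all of them cannot be told apart. The count of 9 depends on which lines are included. It was 0 without H358, without H460 and without H1703, 2 without H23 or H661, 3 without A549, 9 without A427 and 11 without H1437, while the median stayed between -0.28 and -0.19. Over all genes the count of lower genes went from 582 to 73 without H358, 51 without H460 and 13 without H1703.

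**Figure D1:**
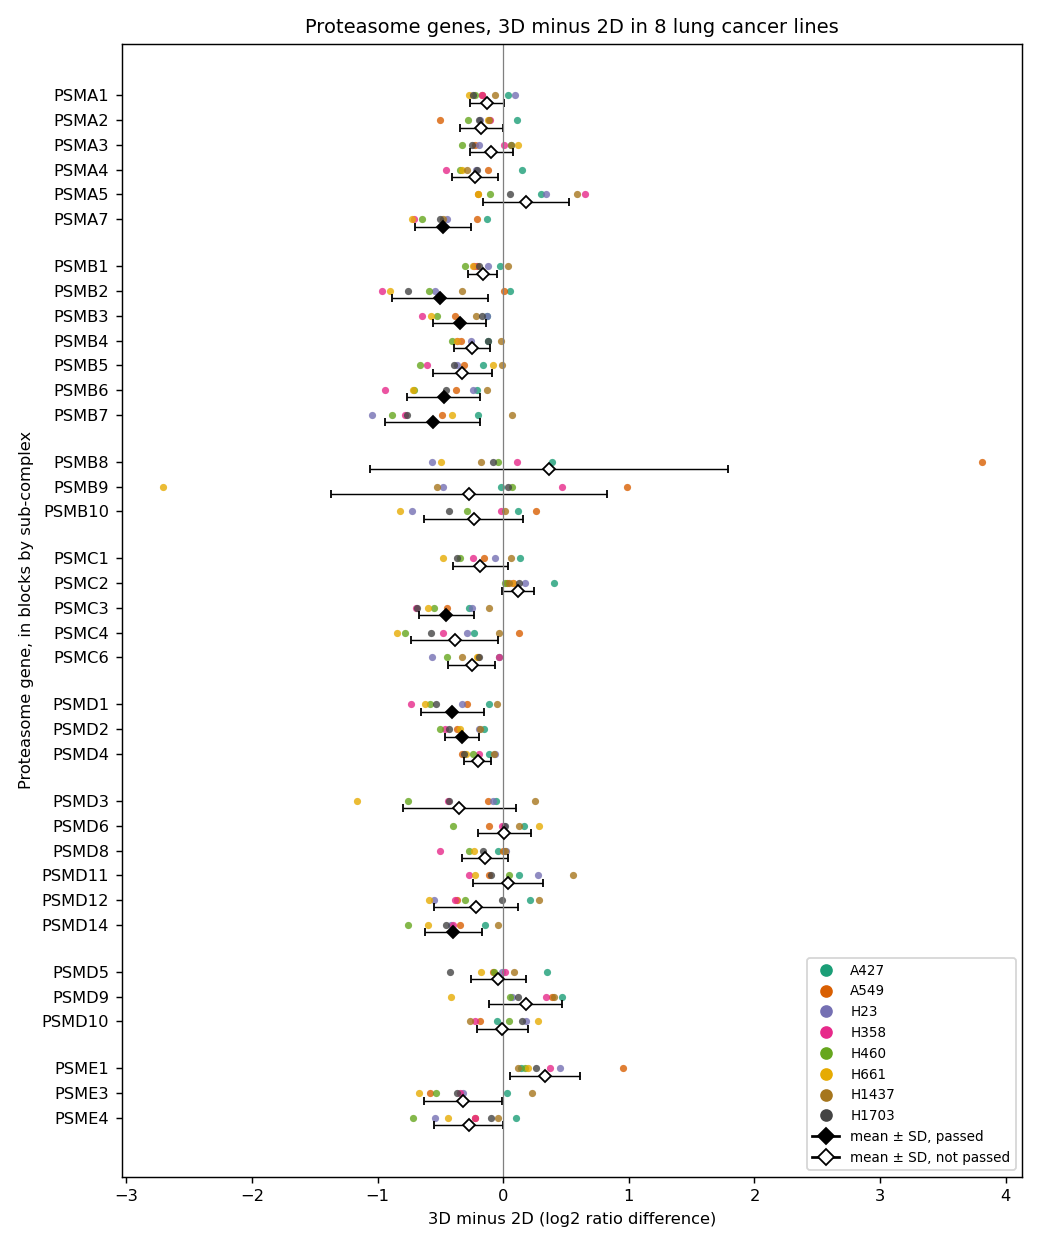
Differences between 3D and 2D culture (horizontal axis, log2) for the 36 proteasome genes (vertical axis), in blocks from alpha ring to activators. Coloured points are the 8 lines, diamonds are means with SD over the lines, and filled diamonds mark the 9 genes that fell; the points of PSMB8 in A549 (3.81) and PSMB9 in H661 (-2.71) lie far from the others.

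In the constitutive beta ring, 4 of 7 genes fell, and all 7 had values below 0, with a median of -0.35. PSMB7 carries the trypsin-like site. Its levels in 2D ran from -0.22 to 0.82 with a median of 0.27, and in 3D from -0.59 to -0.07 with a median of -0.24. It fell by 0.56 on the log2 scale (SD 0.38, n = 8 lines; limma, adjusted p = 0.0313), which is 32.2% lower. H23 had the lowest difference (-1.04) and H1437 the only one above 0 (0.07). PSMB6 carries the caspase-like site, and its 2D levels ran from -1.18 to 0.56 (median 0.23), its 3D levels from -2.11 to 0.32 (median -0.36). It fell by 0.47 (SD 0.29; adjusted p = 0.0289). Every line was below its 2D level, and H358 was lowest in both cultures.

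PSMB2, a beta subunit without catalytic activity, had 2D levels of -0.25 to 0.47 (median 0.24) and 3D levels of -0.83 to 0.49 (median -0.43). It fell by 0.50 (SD 0.38; adjusted p = 0.0428). The averaged fall was uneven over lines: H358 (-0.96), H661 (-0.90) and H1703 (-0.75) were lowest, whereas A549 (0.01) and A427 (0.05) were not lower. Its probe sets differed in this: those at -0.74 and -0.64 were each lower in 8 of 8 lines. The remaining probe set (-0.13 ± 0.59) was lower in 5 lines and higher in 3. PSMB3, another structural beta subunit, had 2D levels of -0.39 to 0.55 (median 0.14) and 3D levels of -1.03 to 0.42 (median -0.34). It fell by 0.35 (SD 0.21; adjusted p = 0.0388), with H358 lowest and A427 highest in each culture.

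PSMB5, which holds the chymotrypsin-like site, was lower in 8 of 8 lines but just missed the threshold. Its 2D levels were -0.26 to 0.61 (median 0.20), its 3D levels -0.51 to 0.48 (median -0.16), and its difference was -0.32 ± 0.23 (adjusted p = 0.0546). PSMB4 was also lower in 8 of 8 lines, at -0.25 ± 0.14, and PSMB1 had -0.16 ± 0.12. Neither passed.

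In the alpha ring 1 of 6 tested genes fell, and the median was -0.15. PSMA7 had 2D levels of -0.26 to 0.88 (median 0.19) and 3D levels of -0.75 to 0.51 (median -0.23). It fell by 0.48 (SD 0.22; adjusted p = 0.0212), lower in every line from A427 (-0.13) to H661 (-0.72). PSMA4 had -0.23 ± 0.18, PSMA2 -0.17 ± 0.17, PSMA1 -0.13 ± 0.14 and PSMA3 -0.09 ± 0.17. PSMA5 stood above 0 at 0.18 ± 0.34, a mean of probe sets that opposed each other (below).

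In the regulatory particle 4 of 14 tested genes fell: 1 of 5 ATPases, 2 of 3 base scaffolds and receptors, and 1 of 6 lid genes. PSMC3, an ATPase of the base ring, had 2D levels of -0.30 to 0.81 (median 0.33) and 3D levels of -0.99 to 0.53 (median -0.07). It fell by 0.45 (SD 0.22; adjusted p = 0.0236) in 8 of 8 lines. The other ATPases were not called: PSMC4 had -0.39 ± 0.35, PSMC6 -0.25 ± 0.19, PSMC1 -0.18 ± 0.22 and PSMC2 0.12 ± 0.13. PSMC6 was lower in 8 of 8 lines, and PSMC2 was the 1 ATPase higher in 8 of 8.

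PSMD1 and PSMD2 are the large scaffolds of the base to which ubiquitin receptors dock. PSMD1 had 2D levels of -0.55 to 0.44 (median 0.22) and 3D levels of -1.28 to 0.06 (median -0.14), and fell by 0.41 (SD 0.25; adjusted p = 0.0327). PSMD2 had 2D levels of -0.77 to 1.83 (median 0.19) and 3D levels of -0.96 to 1.67 (median -0.08), and fell by 0.33 (SD 0.14; adjusted p = 0.0306). Both were lower in 8 of 8 lines. PSMD2 shows why pairing matters, since A427 was highest and H23 lowest in each culture and its range in 2D of 2.60 is far wider than the difference. PSMD4, a ubiquitin receptor, was lower in 8 of 8 lines at -0.20 ± 0.11 and did not pass.

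PSMD14, the deubiquitinase of the lid, had 2D levels of -0.06 to 0.76 (median 0.33) and 3D levels of -0.46 to 0.19 (median -0.07). It fell by 0.40 (SD 0.23; adjusted p = 0.0342). All 8 lines were below their 2D level, H460 most (-0.76). The other 5 tested lid genes were not called. PSMD3 had -0.35 ± 0.45, PSMD12 -0.21 ± 0.34, PSMD8 -0.15 ± 0.18, PSMD6 0.01 ± 0.21 and PSMD11 0.04 ± 0.28. For PSMD3 the lines ran from -1.17 in H661 to 0.25 in H1437.

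The chaperones that help to assemble the base, PSMD5, PSMD9 and PSMD10, had values of -0.04 ± 0.22, 0.18 ± 0.29 and -0.01 ± 0.20, and none passed. Their median was below 0 in 2 lines, against 8 for the constitutive beta ring, the ATPases and the base scaffolds. Among the activators PSME1, a subunit of the interferon-inducible cap, was higher in 8 of 8 lines without passing, at 0.33 ± 0.28 (adjusted p = 0.0678). Its levels ran from -0.70 to 0.53 (median -0.21) in 2D and from -0.41 to 0.90 (median 0.09) in 3D. A549 had the highest difference (0.96), and the mean of the other 7 was 0.24. PSME3, which forms the nuclear cap, and PSME4, a large single-chain activator, had -0.32 ± 0.31 and -0.27 ± 0.28. The adjusted p was 0.0919 for PSME3 and 0.113 for PSME4, so neither passed.

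The inducible beta subunits did not move as a group. None of the 3 passed. Every tested member spanned more between lines in 2D than its mean difference between cultures, and PSMB8 and PSMB9 had the widest spans. PSMB8 spanned 7.51 in 2D (log2, lowest to highest line), more than 98.1% of all genes tested, and PSMB9 spanned 4.08, more than 87.8%. PSMB10 spanned 2.03, more than 62.6%, and less than PSMD8 (3.09), PSMA5 (2.84), PSMC4 (2.78) and PSMD2 (2.60). The median span of the members outside this group was 1.03, and that of all genes 1.63.

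PSMB8 levels in 2D were -5.93 in H661, -5.40 in A549, -0.61 in A427, -0.59 in H23, 0.37 in H1437, 1.08 in H358, 1.15 in H1703 and 1.58 in H460. H661 and A549 thus stood well apart from the other lines, near the lowest value in the file (-6.64). In 3D A549 stood at -1.60 and H661 at -6.43, and the other 6 lines lay between -1.16 and 1.54. The mean difference was 0.37 ± 1.42 (adjusted p = 0.619), and -0.12 without A549, in which PSMB8 was 3.81 higher in 3D. That A549 value compares 1 array with 1 array and starts near the lower limit of the scale, so it has no replicate check. The leukocyte marker CD14 (3.52) and all 5 epithelial markers, from KRT18 (1.29) to KRT19 (3.27), also had high differences in A549, and their part in this value was not tested. The other 6 tested leukocyte markers lay between -0.49 (CORO1A) and 0.27 (LAPTM5) there, with PTPRC at 0.12.

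PSMB9 levels in 2D fell into a high set, H1703 (1.29), H23 (1.18), A427 (0.93) and H460 (0.61), and a low set, H358 (-1.73), A549 (-2.06), H1437 (-2.18) and H661 (-2.79). In 3D the high set lay between 0.68 and 1.33 and the low set between -5.50 and -1.07, so no line changed set. The mean difference was -0.27 ± 1.10 (adjusted p = 0.635), and 0.08 without H661, which had -2.71. That H661 value compares 1 array with 1 array, and its 3D level (-5.50) is near the lowest value in the file (-6.64). A549 had the highest difference, 0.98. PSMB10 ran from -1.07 (H661) to 0.96 (H460) in 2D and from -1.89 to 0.67 in the same lines in 3D, with a difference of -0.24 ± 0.40 (adjusted p = 0.274). A549 again had the highest difference (0.26) and H661 the lowest (-0.82).

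**Figure D2:**
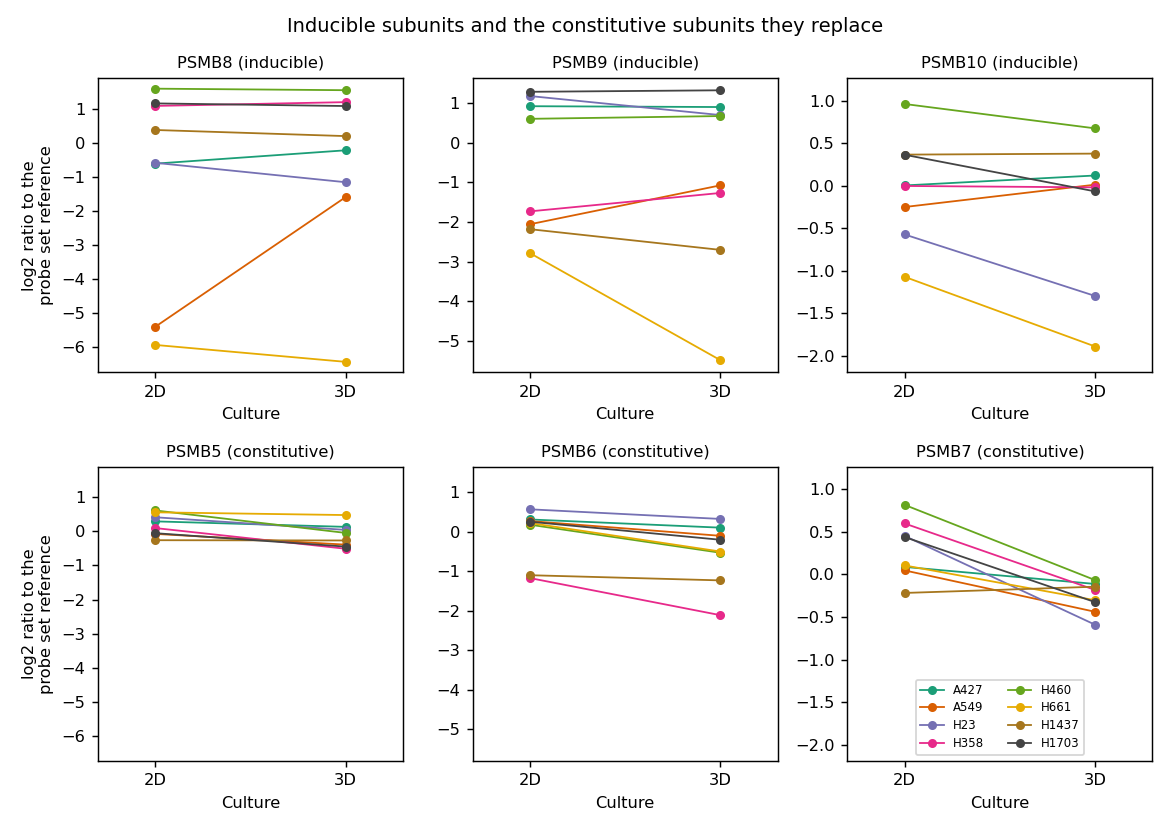
Levels (vertical axis, log2 ratio to the probe set's reference) in 2D and 3D of the inducible subunits (top) and the constitutive subunits they replace (bottom), 1 line of colour per cell line, with the same vertical scale within each pair. PSMB5 and PSMB6 slope down in all 8 lines, while PSMB8 climbs steeply in A549 and PSMB9 drops in H661.

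Each inducible subunit was set against the constitutive subunit whose place it takes, as the inducible difference less the constitutive one in each line. The mean was 0.69 ± 1.45 for PSMB8 against PSMB5, 0.20 ± 1.10 for PSMB9 against PSMB6 and 0.33 ± 0.40 for PSMB10 against PSMB7. The inducible subunit stood above its partner in 5, 5 and 6 of 8 lines. Exact two-sided sign-flip permutation tests over the 8 lines gave p = 0.141, 0.625 and 0.0781, or 0.211, 0.625 and 0.211 after adjustment over the 3 pairs. The shifts that these tests did not reject ran from -0.18 to 1.97, from -0.74 to 1.08 and from -0.04 to 0.67, so each interval includes 0 and, at its upper end, a clear difference. Without A549 the PSMB8 value was 0.20. The PSMB9 value was 0.51 without H661, 0.03 without H358 and 0.04 without A549.

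The size of the difference varied over the lines. The median difference of the 36 genes was -0.39 in H661, -0.34 in H460, -0.26 in H358, -0.22 in H1703, -0.21 in H23, -0.20 in A549, -0.03 in H1437 and 0.00 in A427. In H661 31 of 36 genes were lower (86.1%, against 60.1% of all genes), in H460 30 (83.3% against 50.6%) and in H358 28 (77.8% against 47.3%). H1437 had 20 lower (55.6% against 43.6%) and A427 18 (50% against 49.8%). The sub-complex medians differed in sign in every line but H661. Those of the lid and the activators were above 0 only in A427 and H1437. In these lines the constitutive beta ring had medians of -0.13 and -0.02, the lid 0.04 and 0.19 and the activators 0.10 and 0.12. The alpha ring had 0.08 in A427 and -0.09 in H1437. The constitutive beta ring was lowest in H358 (-0.64), the ATPases in H661 (-0.48) and the base scaffolds in H460 (-0.50). The inducible subunits ran from -0.82 in H661 to 0.98 in A549.

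**Figure D3:**
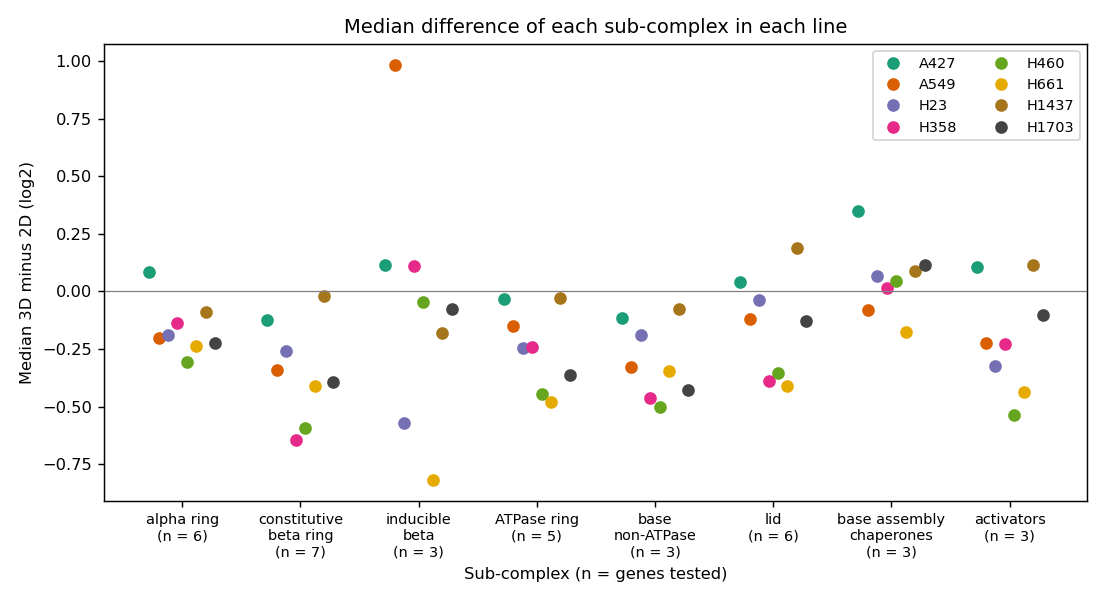
Median difference between 3D and 2D (vertical axis, log2) of the tested genes in each sub-complex (horizontal axis), 1 coloured point per line. The constitutive beta ring, ATPases and base scaffolds lie below 0 in 8 of 8 lines, whereas the inducible subunits spread from -0.82 to 0.98.

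An array control moved with culture as well. The level of 18S rRNA, read by control probe sets, was lower in 3D in 8 of 8 lines by a mean of -1.15 ± 1.06 (exact sign-flip permutation test, two-sided, p = 0.00781, the smallest 8 lines allow; adjusted p = 0.0234 over 3 controls). Its differences were smallest in H1437 (-0.08) and A427 (-0.13), the lines with the smallest proteasome medians, and largest in H23 (-3.45), where the proteasome median was -0.21. With the 18S level of each array as a covariate, limma called 0 of 14113 genes (1368 had an unadjusted p under 0.05, 6 of them members). In that fit the median of the 36 genes was -0.15 and 26 were below 0. PSMC3 stood at -0.45, PSMB6 at -0.46 and PSMA7 at -0.43, near their values without it, and PSMB7 at -0.24 and PSMB2 at -0.39. The covariate overlaps with culture, and the part of 18S in the fall was not tested beyond this fit. The spread between 3′ and 5′ probe sets differed between cultures by 0.09 ± 0.13 for actin (exact p = 0.0859, adjusted 0.129) and by -0.03 ± 0.07 for GAPDH (exact p = 0.344, adjusted 0.344), the other controls compared by the same permutation test.

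**Figure D4:**
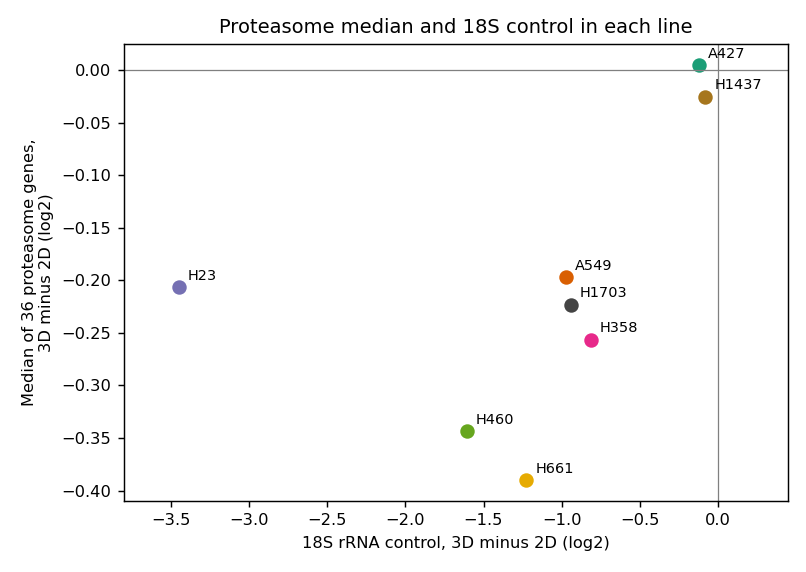
Median difference of the 36 proteasome genes (vertical axis, log2) against the difference of the 18S rRNA control (horizontal axis, log2), 1 point per line. A427 and H1437 lie near 0 on both axes, and H23 has the lowest 18S value (-3.45) with a proteasome median of -0.21.

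Probe sets of one gene did not always move alike. Of the 65 member probe sets, 16 were called lower and 1 higher (limma, Benjamini-Hochberg over 27631 probe sets, of which 8.18% were called, 5.22% lower and 2.96% higher), and 12 genes had at least 1 called lower. Of 19 genes with more than 1 probe set, 8 had probe sets on both sides of 0. PSMA7 (-0.50 and -0.47), PSMD1 (-0.44 and -0.37) and PSMB7 (-0.71 and -0.41) had all their probe sets called lower. PSMB2 had -0.74 and -0.64, both called and lower in 8 of 8 lines, and -0.13, lower in 5.

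PSMC2 had probe sets called in both directions, with 1 called lower at -0.32 (adjusted p = 0.0374) and another called higher at 0.40 (adjusted p = 0.0306), each in 8 of 8 lines. The value of 0.12 above is therefore a mean of opposed readings, and with probe sets of suffix s or x left out PSMC2 was called higher at 0.34. Suffixes s and x mark probe sets whose oligonucleotides can match more than one transcript. Both called probe sets of PSMB2 carry such a suffix. PSMA5 had -0.31 and 0.67, and PSMD11 -0.35 and 0.42, none of them called. PSME4 had -0.81, called lower in 8 of 8 lines, beside -0.15 and 0.14.

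**Figure D5:**
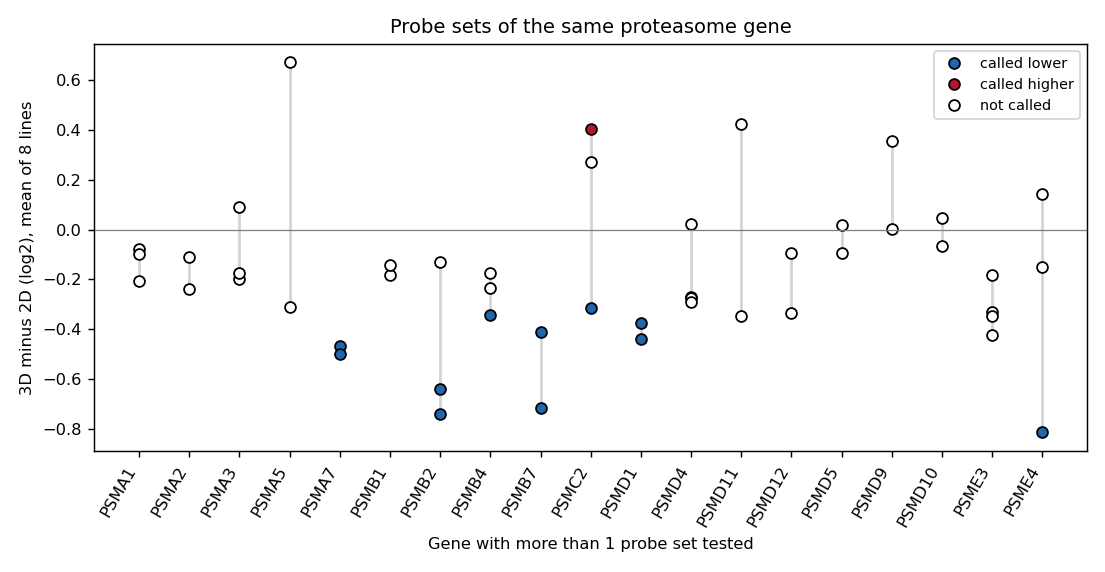
Mean difference between 3D and 2D (vertical axis, log2, 8 lines) of each tested probe set for the 19 genes with more than 1 (horizontal axis). Blue marks probe sets called lower and red the 1 called higher; PSMC2 has both, and PSMA5, PSMD11 and PSME4 have probe sets on both sides of 0.

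Genes that build, regulate or feed the proteasome were examined beside its subunits. Of 8 factors of proteasome assembly and import 0 were called in either direction, with a median of -0.08. The importin IPO9 was lower in 8 of 8 lines at -0.22 ± 0.18, AKIRIN2, which guides nuclear import of proteasomes, had -0.23 ± 0.24, and the chaperone PSMG1 had -0.26 ± 0.42. POMP, the maturation factor of the core, had -0.02 ± 0.26. Of 9 associated proteins 0 were called, with a median of -0.04. The ubiquitin receptor ADRM1 had -0.41 ± 0.48, the lid component SEM1 -0.17 ± 0.11 (lower in 8 of 8 lines), the ligase UBE3C -0.21 ± 0.20 and PITHD1 -0.25 ± 0.28. Their unadjusted p-values lay between 0.0208 for ADRM1 and 0.0284 for PITHD1, and no adjusted p passed.

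Of 6 tested genes for the transcription of proteasome subunits 0 were called, with a median of 0.08. NFE2L1 had -0.09 ± 0.39 and ran from -0.46 in H1703 to 0.49 in H1437, and NFE2L2 had 0.11 ± 0.18. The small MAF partners had 0.47 ± 0.75 (MAFF) and -0.25 ± 0.26 (MAFG). Of 10 tested genes for ubiquitin and substrate delivery 1 fell. This was UFD1, a cofactor of the segregase VCP, which fell by 0.35 (SD 0.19; adjusted p = 0.0314) in 8 of 8 lines. VCP itself had -0.18 ± 0.34, the ubiquitin-activating enzyme UBA1 -0.21 ± 0.16, the shuttle UBQLN1 -0.14 ± 0.17 and the ubiquitin gene UBB -0.12 ± 0.16.

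Of 7 tested interferon regulators and class I processing genes 0 were called, with a median of 0.06. TAP1, the peptide transporter gene that neighbours PSMB9, had -0.39 ± 0.68 and was lower in 7 of 8 lines. Its lowest difference was in H661 (-1.45), as for PSMB9, and its highest in H358 (0.79). IRF1, an interferon regulatory factor, had 0.31 ± 0.43, the peptide trimming enzyme ERAP1 0.29 ± 0.35 and the transporter gene TAP2 -0.24 ± 0.38. In A549, where PSMB8 and PSME1 had their highest differences, TAP1 had -0.10, TAP2 0.47, the class I regulator NLRC5 0.79, ERAP1 0.78 and IRF1 0.58. Of these, TAP2 and ERAP1 had their highest difference in A549. The NLRC5 difference was higher in H23 (1.11), H1437 (1.06) and H460 (0.91), where PSMB8 had -0.57, -0.18 and -0.05. The IRF1 difference was higher in H460 (0.94) and H1703 (0.68). NLRC5 was lowest in H661 (-1.16). PSMA8, a subunit of germ cells, had 0.14 ± 0.07.

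Markers of cell types were measured as a check of the samples. All 5 epithelial markers were above the dim limit, and their mean ran from -5.00 to 4.01 over lines in 2D and from -5.31 to 4.47 in 3D. Leukocytes express inducible subunits strongly, and 7 of 8 leukocyte markers were tested, with 0 called. Their mean ran from -0.15 to 0.55 in 2D and from -0.27 to 0.79 in 3D and was higher in 3D in 6 of 8 lines (0.14 ± 0.17). By gene, 5 leukocyte markers had differences above 0 and 2 below. CD14 was highest at 1.01 ± 1.34, followed by CD3D at 0.17 ± 0.54, and CORO1A was lowest at -0.40 ± 0.63. For fibroblasts 5 of 5 markers and for endothelium 1 of 4 were tested, with 0 called. The mean of the fibroblast markers was higher in 3D in 7 of 8 lines (0.20 ± 0.19). It ran from -0.63 to 4.79 in 2D and from -0.55 to 4.96 in 3D. The endothelial genes VWF, CDH5 and KDR were dim. As ratios these values cannot show whether a marker is absent, and their part in the values of the inducible subunits was not tested.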

How the data were processed

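Per the labels' protocols, 200 ng of total RNA per sample was biotin-labelled for Affymetrix U133 Plus 2.0 arrays. The deposited values are log2 ratios to a reference of each probe set's own. In 63.5% of probe sets the linear median of the 16 arrays equals 1 (log2 within 0.001 of 0). In the others it is under 1, and these were left out as dim. How arrays were summarised and normalised is not given in the sources used here. Array medians lay between -0.28 and -0.07. Precision is limited by how many arrays there are.

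Of 54675 probe sets 41097 named 1 gene, 1801 several and 11777 none in the platform's annotation, and 41043 of the first had a gene identifier in the RefSeq table of GRCh38.p14. Gene values were means of a gene's tested probe sets, which departs from choosing the highest mean, since ratios do not rank probe sets by brightness. The dim limit was written as a log2 median and was applied to the log2 of the linear median, and the median of the log2 values was run as an added alternative, chosen after seeing the data.

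For the differences, limma 3.58.1 ran under R 4.3.3 (eBayes with a variance trend) over 16 arrays with the cell line as a block, and called at a Benjamini-Hochberg adjusted p under 0.05. Lines pair the arrays because each was grown both ways. Replicate numbers were given by accession order and are names only. Intervals of the pair differences hold the shifts that the sign-flip test did not reject at that level. On simulated data with 200 of 14113 genes changed, 64% of genes changed 1.5-fold and 92% of those changed 2-fold were recovered. The simulated noise was drawn independently for each gene and array. Every member had a mean difference smaller than 1.5-fold, the largest being PSMB7 at -0.56 (log2). Recovery of changes as small as those of the members was therefore not measured. Members and lists were chosen with earlier results of these data known. All members are accounted for by sub-complex. The rule for naming details the genes that passed, PSMB5 to PSMB10, PSME1 and PSME2 (not tested), here as lowest, median and highest line. Of the other lists it names the genes called and at most 4 with the smallest p each, and POMP, VCP, NLRC5 and the markers named for A549 were added after their values were seen. The alternatives were other ways to value a gene, filter, normalise and model the variance, no pairing, an 18S covariate and leaving out each line.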

Additional observations from a re-analysis of the deposited data

Results flagged for a closer look

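Of the 36 genes 5 had a line whose difference stood far from the other 7, by a gap test for which chance flags about 1 in 20 sets of values. Only the members were checked, so the share over all genes is not known. PSMB8 stood at 3.81 in A549, where the other lines lay between -0.57 and 0.39. PSMB9 stood at -2.71 in H661, with the others between -0.52 and 0.98. PSMC2 stood at 0.40 in A427 (others 0.02 to 0.18), and PSMD9 at -0.41 in H661 (others 0.05 to 0.47). PSME1 stood at 0.96 in A549, with the others between 0.12 and 0.45. Without these lines the means were -0.12 for PSMB8, 0.08 for PSMB9, 0.08 for PSMC2, 0.26 for PSMD9 and 0.24 for PSME1, so PSMB8 and PSMB9 changed sign. None of the 5 genes had passed the test over all genes. Each value compares 1 array with 1 array. The PSMB8 value in A549 and the PSMB9 value in H661 each involve a level near the lowest value in the file.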

How the results depend on the processing

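The count of 9 members lower was 4 when dim probe sets entered the average, 5 when those of suffix s or x were dropped (where 1 member, PSMC2, was higher and 26 members could be tested), and 0 with the 18S level as a covariate. With no replicate block, that is with the pairing of cultures by line ignored, limma called 0 members (6 had an unadjusted p under 0.05, of 384 among all genes) and 1 gene lower and 0 higher over all genes. Leaving out 1 line gave 0 to 11 members lower, 13 to 681 genes lower (582 with all lines) and 4 to 299 genes higher (278 with all lines). The count of genes lower was 235 with dim probe sets averaged in, where 98 were higher, and 372 without suffixes s and x. With the 18S covariate 0 genes were called lower and 0 higher by limma, where 1368 had an unadjusted p under 0.05. The probe set with the highest mean gave 10 members lower, quantile normalisation 7 and the median of log2 values as dim limit 9 of 31. The median of the members stayed below 0 in every alternative. No call of a pair changed in the alternatives run, and PSMB8 against PSMB5 could not be computed without suffixes s and x. Among single genes, PSMA7 and PSMC3 passed in 13 of 18 alternatives each, PSMB2 in 8 of 19 and PSMB5 in 2 of 19.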
